A study of Mus musculus with 4 samples.

Results

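The genes described here are 41 genes of the antioxidant system of MC38 cells, a mouse colon carcinoma line, among the 26322 genes listed in the deposited expression values. They were listed by symbol and function. The list uses no threshold on measured values, but it was drawn up with earlier results of these data known. They comprise the transcription factor NRF2 (gene Nfe2l2) and its inhibitor Keap1, 3 target genes of NRF2, 5 enzymes that supply NADPH, 6 genes of glutathione synthesis and recycling, 4 glutathione peroxidases, 7 glutathione transferases, 5 genes of the thioredoxin system, 6 peroxiredoxins, and 3 genes for the removal of superoxide and hydrogen peroxide. Of these, 40 had enough reads to be tested. Gpx7, a peroxidase of the endoplasmic reticulum, had 0 reads in every library, which allows a level of up to 0.768 to 0.941 CPM (3 reads, counting error only).

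Cells electroporated with Cas9 bound to a guide against Cbfb (sgCbfb, labelled CbfbKO) were compared with cells electroporated with Cas9 and a non-targeting guide (sgNT, labelled WT), so that both groups went through electroporation with the nuclease. Cbfb encodes the beta subunit of core-binding factor, the partner of the RUNX transcription factors. RNA was taken at least 1 week after electroporation, and 2 libraries per group were sequenced by 3′ mRNA sequencing, after the remaining one of the 3 replicates collected per group had been dropped for RNA quality. The sources used here describe neither a single-cell cloning step before sequencing nor whether the replicates were separate cultures. The p-values therefore measure only the spread between these libraries, which may be technical. The fit takes each gene's variance partly from a trend over all genes, with 21.2 prior degrees of freedom. A p-value therefore does not rest on that gene's own spread alone. Because the sequenced RNA was from bulk cells, fewer expressing cells and less RNA per cell cannot be told apart.

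The libraries held between 3189035 and 3907936 reads counted on genes, so that 1 read is worth 0.256 to 0.314 CPM, the usual unit of reads scaled to the size of the library. Cbfb reads numbered 295 and 285 in sgNT and 125 and 125 in sgCbfb cells, which put Cbfb mRNA at 41.5% of the sgNT level (log2 fold change -1.27, SE 0.12, adjusted p = 1.76e-07 by limma). Without 1 of the sgCbfb libraries, 0 of all genes passed the threshold, so that a call lost there is not particular to its gene, and Cbfb kept its size (-1.12 with an adjusted p of 0.267 by limma without sgCbfb replicate 1, and -1.41 with 0.193 without sgCbfb replicate 2). The labels call the line colorectal. None of 10 colon epithelial markers, among them Epcam, Cdh1, Krt20 and Vil1, reached 5 reads in any library. Summed leukocyte markers were at most 1.54 CPM, summed endothelial markers at most 0.6 CPM, and the 6 summed fibroblast markers 72.1 and 66.6 CPM in sgNT and 80.3 and 83.8 CPM in sgCbfb cells. Of these, Pdgfra differed by 0.53 (adjusted p = 0.0515 by limma) and Dcn by -0.17, neither called, and their part in the results was not tested.

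NRF2 is a transcription factor that KEAP1 holds in the cytosol and hands over for degradation. Oxidants and electrophiles modify KEAP1, NRF2 then accumulates, enters the nucleus with a small MAF partner and binds antioxidant response elements in the promoters of its target genes. Those targets make glutathione, reduce peroxides with electrons that come from NADPH by way of glutathione or thioredoxin, conjugate foreign compounds and export the conjugates. Superoxide dismutases convert superoxide to hydrogen peroxide, which catalase, peroxiredoxins and glutathione peroxidases remove. In many carcinomas this programme is active and protects the cells from oxidative death.

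Promoter sequences were searched for the cores of elements known for NRF2, RUNX factors and the metal response. RefSeq promoter windows (GRCm38.p6, 250 bases before to 50 after a start site) were matched for 35 of the 41 members. Sod3, Gsta4, Gsr, Abcc1, Prdx6 and Gclc were not matched. The core of the antioxidant response element, TGACNNNGC on either strand, was found in the windows of 11 of these 35 members (31.4%), and in those of 14.0% of all genes with a window. The stretches around the core in 6 of them are shown because they belong to NRF2 itself and to 5 members that are widely used as NRF2 targets. Each is read 5′ to 3′ on the strand that carries the core, and capitals mark the core.

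Nfe2l2 (chr2:75704895-75704903): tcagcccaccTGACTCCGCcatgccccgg

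Srxn1 (chr2:152105552-152105560): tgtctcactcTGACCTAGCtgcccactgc

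Gclm (chr3:122245423-122245431): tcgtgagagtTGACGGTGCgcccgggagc

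Prdx1 (chr4:116685466-116685474): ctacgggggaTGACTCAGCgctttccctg

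Me1 (chr9:86695912-86695920): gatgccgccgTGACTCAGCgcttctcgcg

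Txnrd1 (chr10:82859114-82859122): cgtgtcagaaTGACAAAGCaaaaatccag

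Prdx1 and Me1 carry the same core letters, TGACTCAGC. The other members with a match were Gstm5, Pgd, Mgst1, Sod1 and G6pdx. The core lay on the gene's own strand in Nfe2l2 and Me1 and on the opposite strand in the other 4 sequences shown, and coordinates are those of the core.

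Windows are shown whole for the only pair of members that passed the expression test and had a window, Nqo1 (lower in sgCbfb cells) and Gsto1 (higher). Capitals mark the RUNX core TGTGGT, which reads ACCACA on the opposite strand.

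Nqo1 (chr8:107403156-107403455, minus strand): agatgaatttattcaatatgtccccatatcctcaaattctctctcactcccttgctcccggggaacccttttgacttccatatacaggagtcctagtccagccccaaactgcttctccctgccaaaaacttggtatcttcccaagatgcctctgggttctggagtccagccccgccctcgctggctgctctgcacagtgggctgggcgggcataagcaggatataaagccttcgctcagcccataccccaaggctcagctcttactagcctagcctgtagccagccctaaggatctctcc

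Gsto1 (chr19:47854723-47855022, plus strand): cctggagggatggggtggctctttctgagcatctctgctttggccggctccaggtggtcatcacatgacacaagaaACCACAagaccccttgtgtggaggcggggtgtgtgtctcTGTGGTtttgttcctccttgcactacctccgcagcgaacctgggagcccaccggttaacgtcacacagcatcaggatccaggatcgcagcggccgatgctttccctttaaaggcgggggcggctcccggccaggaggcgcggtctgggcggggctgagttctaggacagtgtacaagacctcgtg

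The Nqo1 window held none of the letters searched for, and the Gsto1 window held the RUNX core at 2 places, 174 and 135 bases before the start site. The RUNX core was present in the windows of 4 of 35 members (11.4%: Gsto1, Gstm1, Prdx2 and Prdx3), against 18.9% of all genes with a window. The core of the metal response element, TGCACNC or TGCGCNC, was present for 12 members (34.3%) against 28.2% of all genes. It was in the windows of Srxn1, Txnip, Gstm5, Gstm1, Gclm, Gpx7, Pgd, Glrx3, Glrx, Txnrd2, G6pdx and Prdx4. A match is a description of the letters and not a site shown to be bound, and the absence of a match covers only these 300 bases.

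Across the 40 tested members, 2 were higher and 2 lower in sgCbfb cells at an adjusted p-value under 0.05 (limma on the log2 values), and 36 did not pass. Among all 12207 genes tested, 2.83% passed, 1.57% in the higher and 1.25% in the lower direction. Gsta4 and Gsto1, both glutathione transferases, were the members that rose. Nqo1, the quinone reductase of the NRF2 response, and Sod3, the extracellular superoxide dismutase, were the members that fell. The members tested had a median log2 fold change of 0.086, beside 0.039 over all genes tested. Of the members, 24 had a positive and 16 a negative log2 fold change, and 57.0% of all genes tested were positive. The sgCbfb libraries lay wholly above the sgNT libraries for 17 members and wholly below for 10, and the groups overlapped for 13. Among all genes tested, the groups did not overlap for 44.1%, with sgCbfb above for 27.4% and below for 16.8%.

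**Figure D1:**
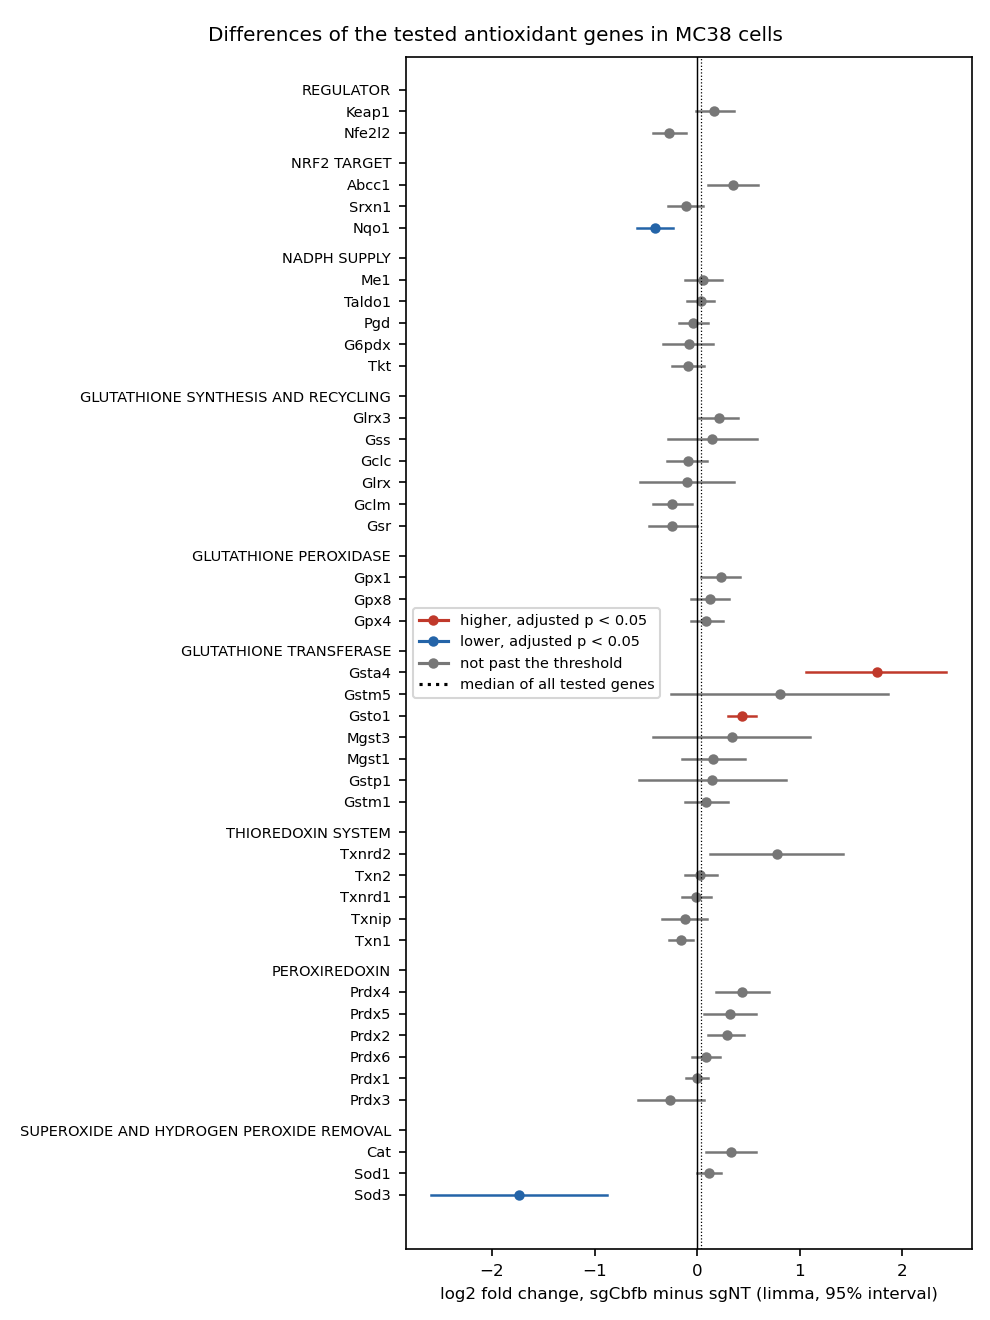
Log2 fold change of each of the 40 tested members in sgCbfb against sgNT cells (horizontal axis) with its 95% interval from limma, grouped by role, with the dotted line at the median of all genes tested. Gsta4 and Gsto1 lie to the right and Nqo1 and Sod3 to the left of 0 past the threshold, and most of the other members stay close to 0.

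The values are scaled to the total of each library, and reads were taken from transcript ends, so that the level of a gene does not grow with the length of its transcript. Summed over the 41 members, the level was 7150 and 7100 CPM in sgNT and 7330 and 7170 CPM in sgCbfb cells. Prdx1, a cytosolic peroxiredoxin, was the most abundant member with means of 1320 CPM in either group, followed by Txn1 with 1040 and 928 CPM and Sod1 with 621 and 673 CPM in sgNT and sgCbfb. At the other end, Gstm5 averaged 1.18 and 2.09 CPM, and Sod3 averaged 5.49 and 1.32 CPM. These 3 most abundant members did not pass the test, whereas Gsta4 and Sod3, which differed most, were among the scarcer members.

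**Figure D2:**
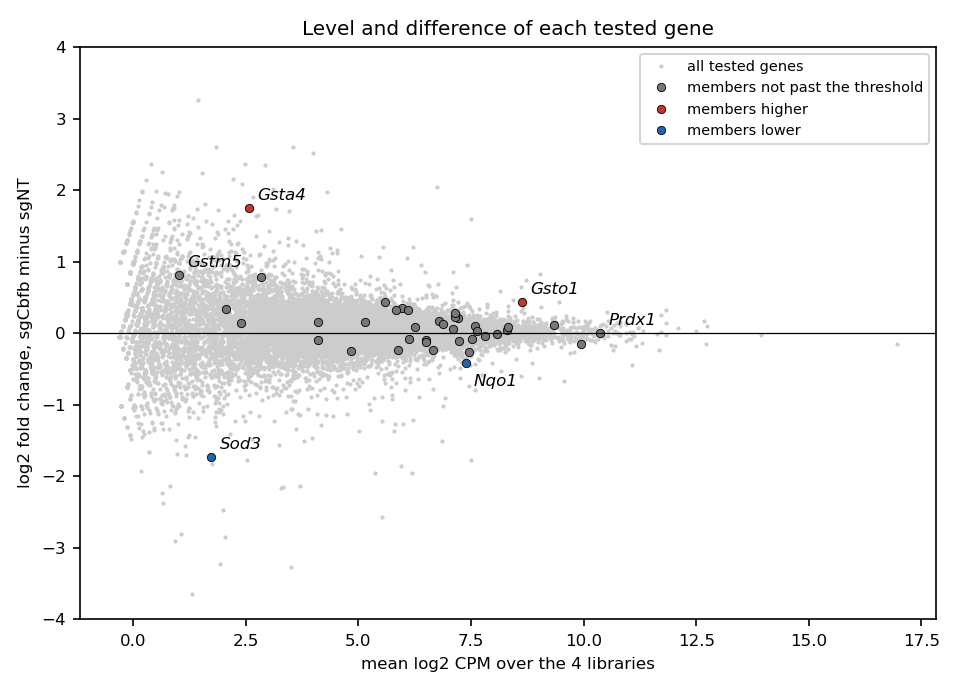
Mean log2 CPM over the 4 libraries (horizontal axis) against the log2 fold change, sgCbfb minus sgNT (vertical axis), with all 12207 tested genes in light grey and the members in darker grey, red (higher) and blue (lower). The spread of all genes widens towards low levels, where Gsta4 (1.75) and Sod3 (-1.74) lie, whereas Gsto1 (0.44) and Nqo1 (-0.41) passed at high levels with small differences.

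The regulators were described first. Nfe2l2, which encodes NRF2 (chr2:75675513-75704641), measured 187 and 196 CPM in sgNT and 159 and 159 CPM in sgCbfb cells. Each sgCbfb value was under each sgNT value, at 82.9% of the sgNT level. The difference was -0.27 on the log2 scale (SE 0.076, 95% interval -0.43 to -0.11), which missed the threshold (adjusted p = 0.0556 by limma). Nfe2l2 passed the threshold as lower in 7 of the 14 alternative fits, with adjusted p-values from 0.0115 to 0.551 over all of them. Keap1, the sensor that marks NRF2 for degradation (chr9:21229730-21239361), measured 107 and 99.5 CPM in sgNT and 122 and 112 CPM in sgCbfb cells. The sgCbfb libraries lay above the sgNT libraries, and the difference of 0.17 (SE 0.091, 95% interval -0.01 to 0.36) was not called (adjusted p = 0.384 by limma). Keap1 overlaps the opposite-strand gene Gm16754 at its 3′ end, and whether the counting used strand is not given in the sources used here.

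The 3 NRF2 targets grouped on their own had differences of both signs, and 1 passed the test. Nqo1, which reduces quinones with NADPH or NADH and is a standard readout of NRF2 (chr8:107388225-107403206), held 715 and 582 reads in sgNT and 576 and 447 in sgCbfb cells. These correspond to 211 and 175 CPM against 147 and 140 CPM. All sgCbfb values lay below the sgNT values, which differed more among themselves (SD 0.19 on the log2 scale, n = 2) than the sgCbfb values did (SD 0.051, n = 2). Nqo1 fell by 0.41 on the log2 scale (SE 0.087, 95% interval -0.59 to -0.23, adjusted p = 0.00604 by limma), to 75.1% of the sgNT level. Nqo1 passed in 9 of the 14 alternative fits. The call was lost without sgNT replicate 1, the higher of the sgNT libraries (-0.28), and without sgCbfb replicate 1 (-0.45) or 2 (-0.38). It was also lost under quantile normalization (adjusted p = 0.177 by limma) and without the mean-variance trend (0.414).

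Abcc1, an exporter of glutathione conjugates also known as MRP1, went the other way in its values, with 56.2 and 53.1 CPM in sgNT and 64.5 and 75.6 CPM in sgCbfb cells. Its difference of 0.35 (SE 0.11, 95% interval 0.11 to 0.59) was not called (adjusted p = 0.115 by limma). Srxn1, sulfiredoxin, which repairs over-oxidised peroxiredoxins, measured 153 and 157 CPM in sgNT and 148 and 140 CPM in sgCbfb cells. Its difference was -0.11 with a 95% interval from -0.28 to 0.06, and it was not called (adjusted p = 0.581 by limma).

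**Figure D3:**
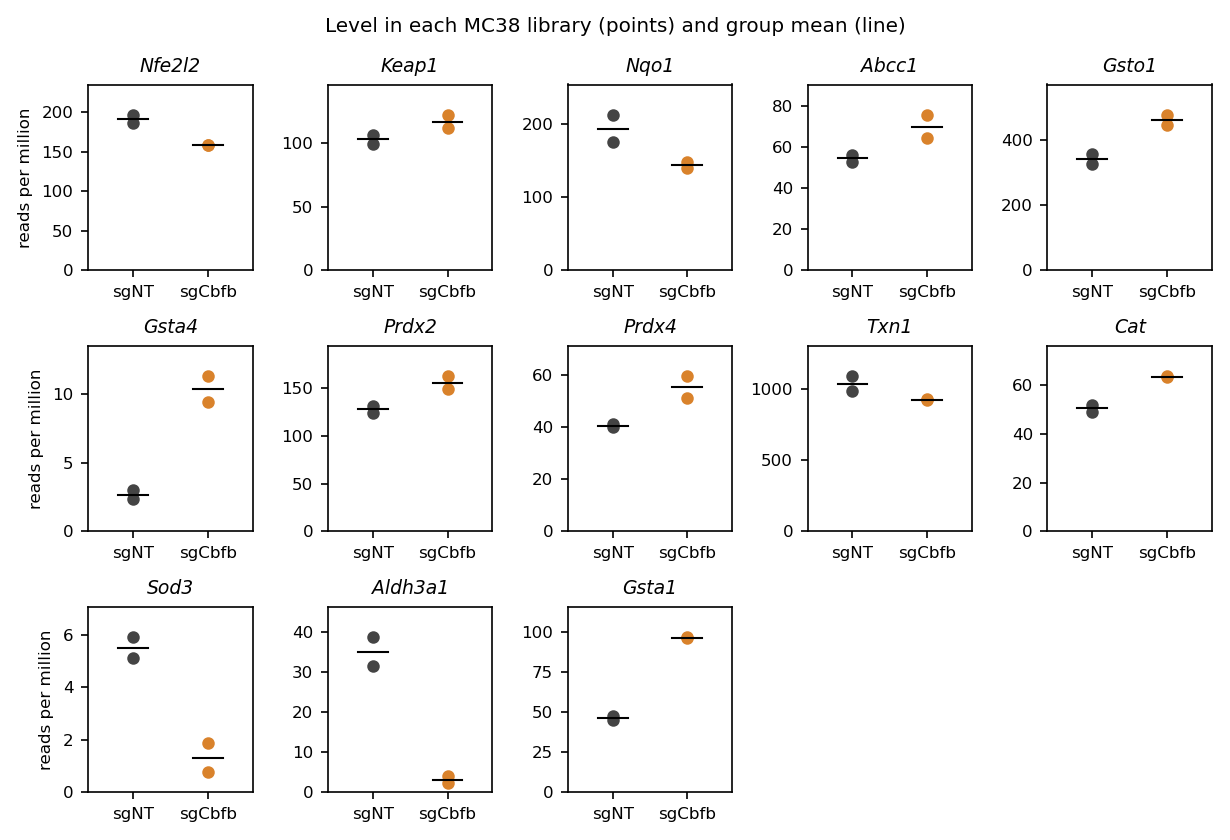
Level of the members described singly, and of Aldh3a1 and Gsta1, in each library (points, in CPM on axes from 0) with the group mean as a line, for sgNT (dark grey) and sgCbfb (orange). Gsta4 rose from a mean of 2.68 to 10.3 CPM and Sod3 fell from 5.49 to 1.32 CPM, while Nfe2l2, Keap1, Prdx2 and Txn1 differed by a small part of their level.

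The glutathione transferases, which join glutathione to electrophiles, held both members that rose. All 7 had a positive log2 fold change, from 0.09 to 1.75, with a median of 0.336, beside 57.0% positive among all genes tested, and 2 passed the test. The direction held for all of them under each scaling, whereas Gstp1 turned to -0.10 without sgNT replicate 2. Among 11 tested transferases outside the members, 7 differences were positive and 4 negative (Gsta2, Gsta3, Gstt2 and Mgst2), with Gsta1 alone called. The summed level of the 7 members was 444 and 475 CPM in sgNT and 610 and 587 CPM in sgCbfb cells, most of it Gsto1.

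Gsto1, an omega-class transferase that reduces rather than conjugates many of its substrates (chr19:47854970-47864790), had 1112 and 1189 reads in sgNT and 1861 and 1430 in sgCbfb cells. In CPM these were 327 and 357 against 476 and 448, with no overlap between the groups. Gsto1 rose by 0.44 on the log2 scale (SE 0.065, 95% interval 0.30 to 0.57, adjusted p = 0.000134 by limma). It was the member with the smallest p-value and passed in 11 of the 14 alternative fits. The call was lost without sgCbfb replicate 1 (0.39) and without sgCbfb replicate 2 (0.48). It was also lost without the mean-variance trend (adjusted p = 0.333 by limma). The 3′ end of Gsto1 lies within Cfap43 on the opposite strand, which had at most 2 reads in any library.

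Gsta4, an alpha-class transferase known for conjugating 4-hydroxynonenal, a product of lipid peroxidation (chr9:78182774-78209349), had 8 and 10 reads in sgNT and 44 and 30 in sgCbfb cells. Both sgCbfb libraries, at 11.3 and 9.41 CPM, were well above the sgNT libraries at 2.36 and 3.00 CPM. Gsta4 rose by 1.75 on the log2 scale (SE 0.33, 95% interval 1.06 to 2.43, adjusted p = 0.00201 by limma). Pooled over libraries, the ratio of CPM was 3.9, with a counting interval (exact binomial, 95%) of 2.31 to 6.94, which covers counting error only. The log2 values contain a prior count of 2 reads and therefore give a smaller ratio for so scarce a gene. Gsta4 passed in 10 of the 14 alternative fits. The call was lost without sgCbfb replicate 1 (1.62) and without sgCbfb replicate 2 (1.87). It was also lost under quantile normalization (adjusted p = 0.0672 by limma) and without the mean-variance trend (0.113).

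The other 5 transferases were not called. Gstm1 measured 72.1 and 74.7 CPM in sgNT and 77.5 and 78.4 CPM in sgCbfb cells, a difference of 0.09 with a 95% interval from -0.12 to 0.30. Mgst1, a membrane-bound transferase with peroxidase activity, differed by 0.16 (95% interval -0.15 to 0.47). Gstm5, Gstp1 and Mgst3 had at most 20 reads in any library, and their intervals were wide, from -0.25 to 1.86 for Gstm5, from -0.57 to 0.87 for Gstp1 and from -0.43 to 1.10 for Mgst3. At this depth a change of Gstp1 by 0.5 on the log2 scale was not detectable. Its near-identical neighbour, Gstp2, was listed with 0 reads in every library, and how reads that match both genes were counted is not given in the sources used here.

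The 6 genes of glutathione synthesis and recycling did not pass the test, with log2 fold changes from -0.24 to 0.21 and a median of -0.096. Gclm, the modifier subunit of glutamate-cysteine ligase, which carries out the first step of glutathione synthesis, measured 112 and 107 CPM in sgNT and 89.3 and 96.3 CPM in sgCbfb cells. Its sgCbfb libraries lay below its sgNT libraries, and the difference of -0.24 (95% interval -0.43 to -0.05) was not called (adjusted p = 0.199 by limma). Gclc, the catalytic subunit of the same enzyme, measured 94.5 and 91.8 CPM in sgNT and 85.7 and 89.1 CPM in sgCbfb cells, a difference of -0.09 (95% interval -0.29 to 0.10). Gsr, glutathione reductase, which returns oxidised glutathione to its reduced form, had the same difference as Gclm, -0.24, with an interval from -0.47 to 0.00. Glrx3, an iron-sulfur cluster glutaredoxin, was the highest of the group at 0.21 (95% interval 0.02 to 0.40, adjusted p = 0.285 by limma). Its sgCbfb libraries measured 177 and 141 CPM against 133 and 141 CPM in sgNT, and only sgCbfb replicate 1 stood clear of the sgNT libraries. Gss and Glrx, glutathione synthetase and glutaredoxin 1, overlapped between the groups.

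Of the glutathione peroxidases, 3 were tested and none passed. Their log2 fold changes lay between 0.09 and 0.23, and each remained positive in every alternative fit. Gpx4, the selenoprotein that reduces lipid peroxides in membranes and guards against ferroptosis, measured 180 and 191 CPM in sgNT and 201 and 195 CPM in sgCbfb cells. The difference of 0.09 had a 95% interval from -0.06 to 0.25, so that a change in Gpx4 mRNA by 0.5 in either direction lies outside it. Gpx1, the cytosolic selenoprotein, measured 143 and 119 CPM in sgNT and 148 and 158 CPM in sgCbfb cells, a difference of 0.23 (95% interval 0.04 to 0.42, adjusted p = 0.206 by limma). Gpx8 of the endoplasmic reticulum membrane differed by 0.13 with overlapping groups.

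In the thioredoxin system 5 genes were measured and none passed. Txn1, cytosolic thioredoxin, held between 2955 and 3629 reads, with 986 and 1090 CPM in sgNT and 929 and 927 CPM in sgCbfb cells. The sgCbfb libraries lay below both sgNT libraries, at 89.6% of their level. The difference of -0.16 (SE 0.056, 95% interval -0.27 to -0.04) was not called (adjusted p = 0.156 by limma), although 2 of the 14 alternative fits, both on the recovered reads, called it lower. Txnrd1, the cytosolic thioredoxin reductase and a target of NRF2, differed by -0.01 with a 95% interval from -0.15 to 0.14, and Txn2, mitochondrial thioredoxin, by 0.03 with one from -0.12 to 0.19. Txnrd2, the mitochondrial reductase, had 18 and 15 reads in sgNT and 40 and 24 in sgCbfb cells. Its difference of 0.78 was the largest of this group and not called, with a wide interval (95% interval 0.13 to 1.42, adjusted p = 0.214 by limma). Txnip, an inhibitor of thioredoxin, overlapped between the groups at 92.2 and 96.2 CPM in sgNT and 77.8 and 96.3 CPM in sgCbfb cells.

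The 6 peroxiredoxins, which reduce hydrogen peroxide with electrons from thioredoxin or, in the case of Prdx6, glutathione, were not called either. Prdx4, the peroxiredoxin of the endoplasmic reticulum, measured 40.0 and 41.4 CPM in sgNT and 51.4 and 59.6 CPM in sgCbfb cells. Both sgCbfb libraries were higher, and the difference of 0.44 (SE 0.13, 95% interval 0.18 to 0.70) missed the threshold (adjusted p = 0.0616 by limma, 0.0258 to 0.539 over the alternative fits). Prdx2, a cytosolic peroxiredoxin, measured 124 and 131 CPM in sgNT and 162 and 149 CPM in sgCbfb cells. Its difference of 0.29 (SE 0.084, 95% interval 0.11 to 0.46) also missed it (adjusted p = 0.0666 by limma, 0.0265 to 0.556 over the alternative fits). Prdx2 overlaps Junb at its 3′ end on the opposite strand, and Junb differed by 0.13 (adjusted p = 0.536 by limma). Prdx5 differed by 0.32, Prdx6 by 0.09 and mitochondrial Prdx3 by -0.26, none of them called. Prdx1 measured 1360 and 1280 CPM in sgNT and 1350 and 1300 CPM in sgCbfb cells, and its interval of -0.11 to 0.11 was the narrowest of any member.

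Superoxide and hydrogen peroxide removal was represented by Sod1, Sod3 and Cat. Sod3, the copper- and zinc-containing superoxide dismutase that cells secrete into the matrix (chr5:52363791-52371418), had 20 and 17 reads in sgNT and 3 and 6 in sgCbfb cells. In CPM these were 5.89 and 5.10 against 0.768 and 1.88, and the groups did not overlap. Sod3 fell by 1.74 on the log2 scale (SE 0.42, 95% interval -2.59 to -0.88, adjusted p = 0.0177 by limma). The pooled ratio of CPM was 0.231, with a counting interval (exact binomial, 95%) of 0.0979 to 0.487. The call was lost when any single library was left out, with adjusted p-values of 0.193 and 0.132 without sgNT replicates 1 and 2 and of 0.551 and 0.446 without sgCbfb replicates 1 and 2, and also without the filter on low values (0.0626). The log2 fold change ranged from -2.17 to -1.30 over these fits.

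Sod1, the copper- and zinc-containing dismutase of the cytosol, had at least 2088 reads in each library. It measured 615 and 628 CPM in sgNT and 670 and 676 CPM in sgCbfb cells, a difference of 0.12 (95% interval -0.00 to 0.23) that was not called (adjusted p = 0.335 by limma). Sod1 and Sod3 use the same metals, and Sod1 lay above the sgNT libraries where Sod3 lay below them. Sod1 overlaps the opposite-strand gene Scaf4 at its 3′ end. Cat, the peroxisomal catalase, measured 48.9 and 51.9 CPM in sgNT and 63.5 and 63.3 CPM in sgCbfb cells. Both sgCbfb libraries were higher, with a difference of 0.33 (SE 0.11, 95% interval 0.09 to 0.57) that was not called (adjusted p = 0.142 by limma).

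The 5 members that supply NADPH, the electron donor of the whole system, showed the smallest differences, between -0.09 and 0.06 on the log2 scale. None was called, and each of the 5 intervals stayed within 0.5 of 0. G6pdx, the entry enzyme of the pentose phosphate pathway, measured 70.7 and 71.1 CPM in sgNT and 75.7 and 59.0 CPM in sgCbfb cells, with the sgNT values between the sgCbfb values. Pgd, the next dehydrogenase of the pathway, differed by -0.04, Taldo1 by 0.04, Tkt by -0.09 and Me1, cytosolic malic enzyme, by 0.06. Over all members, 25 of 40 had a 95% interval within 0.5 of 0, and the other 15 included the 4 members called and scarce genes such as Gstm5, Gstp1 and Mgst3.

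Of the 11 members with an antioxidant response element core in the promoter window, none was called, and their log2 fold changes ran from -0.27 for Nfe2l2 to 0.81 for Gstm5, with a median of -0.01. Of the 4 members with a RUNX core, Gsto1 was called, and the values ran from -0.26 for Prdx3 to 0.44 for Gsto1. Of the 11 tested members with a metal response element core, none was called, with values from -0.24 to 0.81. With 2.83% of all genes called, sets of this size are too small for these counts to bear on the motifs.

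**Figure D4:**
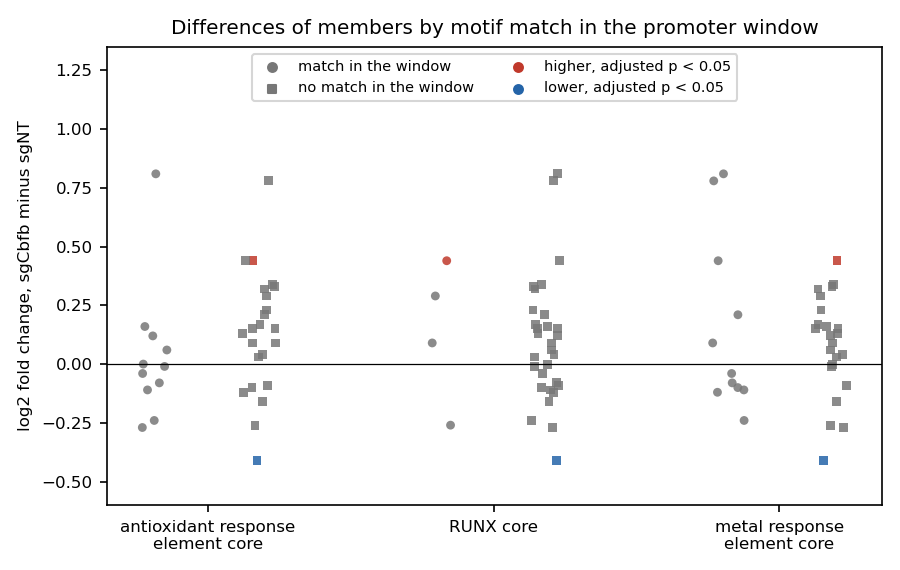
Log2 fold change, sgCbfb minus sgNT (vertical axis), of the tested members with a RefSeq promoter window, split by the presence (circles) or absence (squares) of the motif core in the window. Members with and without a match cover overlapping ranges for each of the 3 cores, and Nqo1, the lowest point, has a match to none of them.

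A further 96 genes of the same pathway, listed by function, were counted in the same fit. Of these, 80 were tested, 1 was higher, 1 was lower and 78 did not pass, a share close to the 2.83% called among all genes, with a median log2 fold change of 0.043, and 12 had no reads in any library. Aldh3a1, an aldehyde dehydrogenase that oxidises lipid-derived aldehydes, had 131 and 105 reads in sgNT and 9 and 13 in sgCbfb cells. It fell by 3.27 on the log2 scale (SE 0.27, 95% interval -3.84 to -2.71, adjusted p = 1.78e-08 by limma), and the pooled ratio was 0.0884 (counting interval 0.0544 to 0.137). Gsta1, an alpha-class transferase like Gsta4, had 153 and 159 reads in sgNT and 377 and 306 in sgCbfb cells. It rose by 1.04 (SE 0.11, 95% interval 0.82 to 1.26, adjusted p = 4.38e-07 by limma). Without sgCbfb replicate 1 or 2, where no gene at all passed, the log2 fold changes were -2.93 and -3.62 for Aldh3a1 (adjusted p = 0.267 and 0.193 by limma) and 1.04 and 1.05 for Gsta1 (0.272 and 0.273). Gsta2, a near-identical paralog between which and Gsta1 the counting could split reads, had 19 to 24 reads per library and a difference of -0.25 that was not called.

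Some well-known genes of the response outside the members, singled out for their role with their values known, did not pass. Hmox1, heme oxygenase 1, had 55 and 48 reads in sgNT and 43 and 43 in sgCbfb cells, a difference of -0.31 (95% interval -0.78 to 0.16). Slc7a11, the cystine importer that feeds glutathione synthesis, measured 113 and 103 CPM in sgNT and 98.0 and 99.4 CPM in sgCbfb cells, a difference of -0.13 (95% interval -0.32 to 0.06). Both sgCbfb libraries were below the sgNT libraries for either gene. Sqstm1, which binds KEAP1 and is itself an NRF2 target, differed by 0.17 (95% interval 0.03 to 0.30, adjusted p = 0.196 by limma). Among the 19 tested genes listed under NRF2 targets and cystine uptake, 7 had a positive and 12 a negative log2 fold change, beside 57.0% positive among all genes tested, which is a count without a test.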

How the data were processed

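Reads were trimmed (cutadapt 1.9), mapped to mouse GRCm38/mm10 (HISAT2 2.1.0) and counted with featureCounts by the authors. They deposited log2 CPM values for 4 libraries. The steps of the values show that 2 reads, scaled to the size of each library, had been added to every count beforehand. The annotation, the use of strand and the treatment of reads that match several genes are not given in the sources used here, and could change overlapping genes and paralogs. Members with an opposite-strand gene at their 3′ end were Keap1, G6pdx, Gclm, Gss, Gpx8, Gsto1, Txnip, Prdx2 and Sod1. All values gave whole reads within 0.1 (100% in each library), and these recovered reads describe the depth (3189035 to 3907936 reads per library).

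The test covered the 12207 of 26322 genes whose log2 CPM was 0 or more in 2 or more libraries. Deposited values were fitted with limma 3.58.1 in R 4.3.3 (lmFit, eBayes with a mean-variance trend), two-sided, with Benjamini-Hochberg adjustment over all genes and a threshold of 0.05. An exact permutation test of 2 against 2 libraries cannot give a p-value under 0.333. The methods of the study name voom with limma, which takes counts, so voom was an alternative. The test was run on simulated reads in which every gene had the same variability between libraries beyond counting error. That setting cannot check the variance model, on which the calls depended. Alternatives were other filters, scalings and variance models, voom on recovered reads, the replicate number as a block, a threshold of 0.01 and each library left out, and counts of fits in the text are over the 14 that refit the data.

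The members and gene lists were chosen with earlier results of these data known. Values in every library are given for members past the threshold, Nfe2l2, Keap1 and the 10 members with the smallest p-values, and the others by counts, ranges and selected values. Gene positions are from GENCODE M21 (GRCm38), and promoter windows from RefSeq (GRCm38.p6).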

Additional observations from a re-analysis of the deposited data

How the results depend on the processing

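The 11 members given with values in every library under the naming rule (Nfe2l2, Keap1, Nqo1, Abcc1, Gsta4, Gsto1, Txn1, Prdx2, Prdx4, Sod3 and Cat) kept the sign of their log2 fold change in all 14 alternative fits. Of the 40 tested members, 31 kept their sign in every alternative fit that tested them. For Gstm5 and Mgst3 these were 13 fits, because a minimum of 5 CPM left them out. The other 9, with small or poorly measured differences (Me1, G6pdx, Taldo1, Glrx, Gstp1, Txn2, Txnrd1, Txnip and Prdx1), changed sign in 1 or 2 fits. The calls depended on the variance model and on single libraries. Without the mean-variance trend, 0 genes were called higher and 0 lower, 0 members and 0 further pathway genes were called in either direction, and Cbfb, at -1.27, missed the threshold (adjusted p = 0.115 by limma), while 1461 genes and 8 members had an unadjusted p-value under 0.05. Quantile normalization gave 39 higher and 44 lower genes, with 1 member higher (Gsto1) and 0 lower. In that fit 56 genes had no spread within the groups and the prior degrees of freedom were 3.94, beside 0 genes and 21.2 in the fit reported, and the cause of the lower counts was not tested. A minimum of 5 CPM gave 300 higher genes and 4 higher members (Gsta4, Gsto1, Prdx2 and Prdx4). Under that minimum, Gsta4 and Sod3 entered only through the group where they were high, so their calls there add no support. Without the low-value filter 1 member was lower (Nqo1). Voom with TMM scaling gave 240 lower genes and 4 lower members, and voom with library totals 4 lower members, in each case Nfe2l2, Nqo1, Sod3 and Txn1. A threshold of 0.01 left 103 higher and 97 lower genes and 1 lower member (Nqo1). Leaving the ribosomal RNA genes out of the totals changed the split from 192 higher and 153 lower to 155 higher and 165 lower genes, and added Nfe2l2 to the members called lower, as did vooma weights and median centring.

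With a replicate block, the fit gave 320 higher genes, 4 higher members (Gsta4, Gsto1, Prdx2 and Prdx4) and 3 lower members (Nfe2l2, Nqo1 and Sod3). The deviations of libraries that share a number were uncorrelated across genes (r = -0.0042) over 2 pairs, and the labels do not say what libraries with the same number share.

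With each library left out in turn, between 0 and 115 genes were higher and between 0 and 86 lower, between 0 and 2 members were higher and between 0 and 1 lower, and between 0 and 1 further pathway genes passed in either direction. Cbfb ranged from -1.41 to -1.12. The counts of 0 came from leaving out sgCbfb replicate 1 or 2 (1104 and 1169 genes at an unadjusted p-value under 0.05), and for members called lower also sgNT replicate 1. In these fits the lone library is taken to vary like the other group. The planned quasi-likelihood count test on recovered reads was left out, and of the count-based alternatives only voom was run. A second pseudocount had been planned only for linear values and was not tried. Depth limits the scarce members most, since Sod3, Gsta4, Gstm5, Gstp1, Mgst3 and Txnrd2 had at most 44 reads in any library.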

Other observations

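Nqo1 and Aldh3a1, which fell, are also known as targets of the aryl hydrocarbon receptor (dioxin receptor, gene Ahr). The values of 11 genes of that receptor's battery are therefore given here. The list was chosen after the values had been seen, it holds Nqo1, Aldh3a1 and Gsta1 themselves, and it gets no test as a list. Ahr had 64 and 88 reads in sgNT and 46 and 39 in sgCbfb cells, with no overlap between the groups. Ahr fell by 0.86 on the log2 scale (SE 0.22, adjusted p = 0.0248 by limma, 0.00327 to 0.551 over the alternative fits). Cyp1a1, the receptor's most widely used target, had 17 and 17 reads in sgNT and 6 and 9 in sgCbfb cells, a difference of -1.07 that was not called (adjusted p = 0.165 by limma). Cyp1b1 had 20 and 14 reads against 10 and 7, a difference of -0.91 that was not called (adjusted p = 0.235 by limma). Tiparp, another target, had 294 and 293 CPM against 261 and 268 CPM with no overlap, and its difference of -0.15 was not called (adjusted p = 0.285 by limma). Arnt, the partner of the receptor, differed by -0.17 with overlapping groups. Ahrr and Ugt1a6a had no reads, and Cyp1a2 had at most 1 read in any library. Gsta1 rose, as described above.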
